A study of Mus musculus with 6 samples.

Results

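The comparison asked which RNAs differed when interleukin 1β (IL-1β) was present during the first 1 h of a culture that drives CD4 T cells toward Th9 cells, the helper T cells that take their name from the cytokine IL-9. It rests on 2 of the 6 RNA-seq libraries of the study, 1 without and 1 with IL-1β, and on the 933 of 23091 gene symbols that reached 5 FPKM in at least 1 of these libraries. FPKM, a fragment count divided by the length of the transcript and by the library's total of mapped fragments, is the unit of the deposited values, each of which carries a lower and an upper bound. Both groups were naive CD4 T cells of spleen and nodes, from C57/Bl6j mice of 7 weeks with a wild-type genotype. Both were kept for 1 h in plates with a CD3/CD28 coating, which stimulates the T cell receptor and its co-stimulator, in medium with IL-4 (20 ng/ml), TGFβ (2 ng/ml) and a blocking antibody to interferon γ. IL-1β, at 10 ng/ml, was added in 1 of the groups only. RNA came from 300000 cells, was depleted of ribosomal RNA and was sequenced on a MiSeq. The sources used here do not give the number of mice that the cells came from. The other 4 libraries, from day 3 of culture and from cells sorted 1 week after injection into mice, were made from poly(A)-selected RNA. With 1 library per group there is no replicate, so no difference could be tested and every comparison is one between libraries.

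IL-1β acts through a receptor of 2 chains, Il1r1 and Il1rap, which recruits the adaptor Myd88, the kinases of the Irak family and Traf6. This chain of signals frees the transcription factors of the NF-κB family (Nfkb1, Nfkb2, Rel, Rela and Relb) from their inhibitors, and activates p38 and JNK kinases. Among the first targets of NF-κB are genes that feed back on it, such as Nfkbia, Tnfaip3 and Nfkbiz. Stimulation of the T cell receptor, which both groups received, by itself induces immediate early genes such as Egr1, Nr4a1 and Cd69.

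A gene was called higher or lower with IL-1β when (FPKM + 1) differed by 2-fold or more and the deposited intervals of the 2 libraries did not overlap. By this rule 72 of the 933 genes (7.72%) were higher and 2 (0.214%) were lower. The higher genes fell into 2 kinds of equal number. In 36 of them the library without IL-1β held a value above 0, and their log2 ratios ran from 1.07 to 2.61 with a median of 1.67. The other 36 were listed at 0 without IL-1β with an interval of 0 to 0, so that any lower bound above 0 kept the intervals apart. Of these, 25 stood under 10 FPKM with IL-1β. Among the 843 compared genes above 0 in both libraries, 36 (4.27%) were higher and 0 were lower. Without regard to fold, the intervals lay apart upward for 83 genes (8.9%) and downward for 3 (0.322%). A ratio of at least 2-fold with overlapping intervals was found for 108 genes upward and 89 downward, so most of the 2-fold ratios in either direction did not meet the rule.

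**Figure D1:**
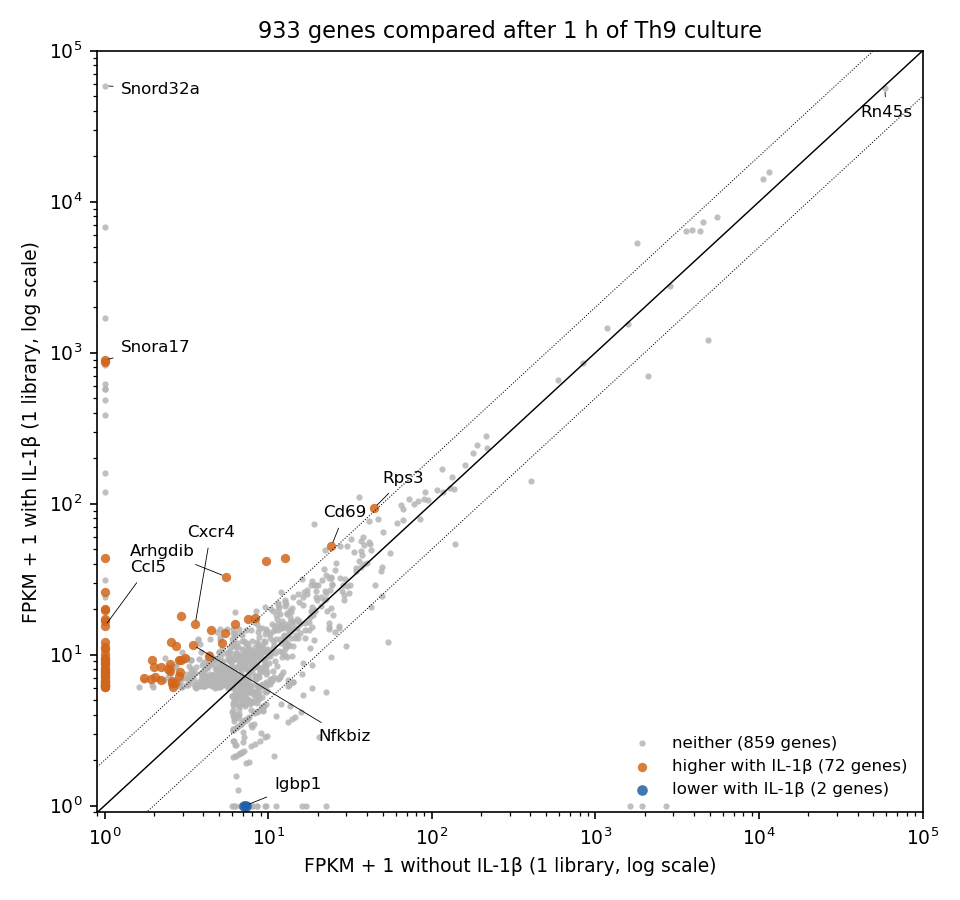
FPKM + 1 of the 933 compared genes after 1 h without IL-1β (x axis) and with it (y axis), both on log scales, 1 library each. The solid line marks equal values and the dotted lines 2-fold ratios. The 72 higher genes (orange) lie above the upper dotted line, with 36 of them on the left edge at a listed 0, and the 2 lower genes (blue) lie on the bottom edge.

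The 2 libraries differed in depth of detection as well as in IL-1β. The library without IL-1β had 631 genes at 5 FPKM or more and 5651 above 0, against 765 and 8127 with IL-1β. Its median interval half-width was 69.9% of the value against 42.1%, and 31.4% of its genes at 5 FPKM or more had a lower bound of 0, against 7.58%. Rn45s, the precursor of ribosomal RNA, held 41.3% of the summed FPKM without IL-1β and 24.7% with it. That sum rose from 142341 to 229606 FPKM, while the value of Rn45s itself changed little. The list of transcripts that lack a poly(A) tail, which includes Rn45s, held 124689 and 207286 FPKM of these sums. Most of the rise therefore lay in that list. Ratios were shifted upward as a whole. The median log2 ratio was 0.30 over the compared genes (616 above 0, 317 below) and 0.23 over the 5395 genes at 1 FPKM or more in 1 of the libraries. Over the 463 genes that reached 5 FPKM in each library it was 0.21, and dividing out that shift left 40 higher and 2 lower genes. Scaling to equal upper quartiles left 55 and 2. Scaling to equal sums without the transcripts that lack a poly(A) tail left 34 and 4. The part of depth in the higher calls was not tested. Each scaling divided the values with IL-1β, by factors of 1.16, 1.07 and 1.26 in the order given. A gene called higher under the last was therefore called higher under the others too. Genes listed at 0 without IL-1β could lose the call only by falling under 5 FPKM. Higher under all 3 scalings were 34 genes, 24 of them listed at 0 without IL-1β. The other 10 were Arhgdib, Arl5b, Arpc1b, Cxcr4, Def6, Lrp10, Selplg, Tpt1, Ubb and Wapal.

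Nfkbiz, which encodes the nuclear NF-κB cofactor IκBζ (mm9 chr16:55811490-55838754), stood at 2.46 FPKM (interval 0 to 6.23) without IL-1β and at 10.6 FPKM (7.13 to 14) with it. Its log2 ratio was 1.74. The call was kept with equal upper quartiles and lost under the other 2 scalings, where the intervals overlapped at log2 ratios of 1.54 and 1.43. The other feedback inhibitors were already well above 0 without IL-1β and their intervals overlapped. Nfkbia, encoding the classical inhibitor IκBα, stood at 10.5 FPKM (4.07 to 17.6) without and 13.5 (8.15 to 18.6) with IL-1β, a log2 ratio of 0.33. Tnfaip3, encoding the ubiquitin-editing enzyme A20, stood at 18.1 (12.1 to 24.2) and 28.0 FPKM (23.1 to 33.0), a log2 ratio of 0.60 with intervals that overlapped by a narrow margin. Nfkbid, encoding the nuclear inhibitor IκBNS, stood at 35.7 and 37.0 FPKM. Of these feedback genes only Nfkbiz was called.

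The 5 subunit genes were low in both libraries, and none of those compared was called. Nfkb1 stood at 4.86 and 8.10 FPKM without and with IL-1β, Nfkb2 at 4.55 and 7.27, and Rel at 5.28 and 6.41. Relb stood at 3.13 and 4.03 FPKM, under the minimum, and so was not compared. Rela was the one with the higher value without IL-1β, 5.86 against 5.02. Of other listed targets, the AP-1 gene Junb stood at 29.1 and 51.0 FPKM (log2 ratio 0.79) and the lymphotoxin gene Ltb at 6.8 and 13.6 (0.90). Bcl2a1b, a survival gene of a family of near-identical copies whose fragments cannot be assigned with certainty, stood at 17.4 FPKM (5.60 to 30.8) without and 4.97 (0 to 9.62) with IL-1β. Over the list of 41 NF-κB subunits, regulators and targets, 21 were compared, of which 2 were higher (Nfkbiz and Ccl5) and 0 lower. That share of 9.52% is near the 7.72% of all compared genes. The median log2 ratio of the 32 members at 1 FPKM or more was 0.62, with 25 above 0 and 7 below, beside 0.23 over all genes. Over the members above 0 in both libraries it was 0.31, beside 0.07 over all such genes.

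Promoters of 2 feedback genes and of 2 higher genes are printed to show where letters of the NF-κB consensus stand in them. The 250 bases upstream of a RefSeq start (GRCm38.p6, strand of the gene) were searched on both strands for GGGANNNCCC, GGGANNNTCC, GGGGNNNCCC and GGGGNNNTCC, patterns that can overlap one another. Capitals mark the matches. The windows are chr12:55492648-55492897 (minus strand) for Nfkbia, chr10:19015411-19015660 (minus) for Tnfaip3, chr6:136941900-136942149 (minus) for Arhgdib, and chr1:128592300-128592549 (minus) for Cxcr4.
Nfkbia: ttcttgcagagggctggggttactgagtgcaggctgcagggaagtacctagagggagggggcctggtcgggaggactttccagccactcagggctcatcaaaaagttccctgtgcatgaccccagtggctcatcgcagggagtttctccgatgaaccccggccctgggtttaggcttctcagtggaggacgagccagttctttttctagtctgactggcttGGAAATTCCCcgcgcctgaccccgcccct
Tnfaip3: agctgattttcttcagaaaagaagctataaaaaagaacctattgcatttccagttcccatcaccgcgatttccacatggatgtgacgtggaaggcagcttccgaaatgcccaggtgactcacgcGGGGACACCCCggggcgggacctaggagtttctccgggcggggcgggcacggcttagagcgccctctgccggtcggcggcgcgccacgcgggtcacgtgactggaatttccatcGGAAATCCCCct
Arhgdib: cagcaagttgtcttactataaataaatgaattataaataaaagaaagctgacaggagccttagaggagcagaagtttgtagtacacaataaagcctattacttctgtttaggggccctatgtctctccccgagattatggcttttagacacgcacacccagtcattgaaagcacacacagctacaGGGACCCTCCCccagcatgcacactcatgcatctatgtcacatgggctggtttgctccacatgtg
Cxcr4: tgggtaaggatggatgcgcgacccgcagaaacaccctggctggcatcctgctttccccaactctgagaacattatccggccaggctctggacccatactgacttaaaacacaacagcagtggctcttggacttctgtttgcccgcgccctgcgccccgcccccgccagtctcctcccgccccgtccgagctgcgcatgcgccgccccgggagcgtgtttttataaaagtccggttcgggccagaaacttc
Nfkbia held 1 match. Tnfaip3 held 4 at this start, 3 of them overlapping and 1 apart, and none at its other start. Arhgdib held 2 overlapping matches at this start and none at its 2 other starts, and Cxcr4 held none. Of 27025 genes with a promoter in the table, 15.4% held a match, and of the compared genes 22.3% (146 of 655). Among the higher genes the share was 16% (8 of 50: Arhgdib, Arl5b, Ctsd, Def6, Rasgrp2, Sft2d2, Sin3b and Tpt1), and in the NF-κB list 55.9% (19 of 34). A match is a run of letters and not a measured binding site. Nfkbiz, Cd69, Selplg and Ccl5 have no entry in the table.

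The receptor and its signalling chain were near the limit of what these libraries show. Il1r1, the signalling receptor, was listed at 0 in both. Il1rap, its partner chain, was listed at 0 without and stood at 0.417 FPKM with IL-1β, and the decoy receptor Il1r2 at 0 and 0.769. Myd88 stood at 1.22 and 2.61 FPKM, Traf6 at 2.01 and 2.42, Irak2 at 2.21 and 1.58, and the IκB kinase gene Ikbkb at 3.12 and 2.94. Of the 26 members 0 reached 5 FPKM, so none was compared. The 14 at 1 FPKM or more split evenly, with 7 ratios above 0 and 7 below.

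Of the list of immediate early and early activation genes, 2 of 28 compared members (7.14%) were higher, a share no larger than the 7.72% of all compared genes. Cd69, an activation marker that holds T cells in lymphoid tissue (mm9 chr6:129217343-129225387), stood at 23.3 FPKM (13.2 to 34.4) without and 51.2 (38.6 to 63.5) with IL-1β, a log2 ratio of 1.1. It was among the 3 higher genes nearest to the 2-fold limit, and dividing out the median shift brought it to 0.89. Rgs2, a regulator of G protein signalling, stood at 1.5 (0 to 3.56) and 6.74 FPKM (3.97 to 9.47), a log2 ratio of 1.63. Its call was lost under the same scalings as that of Nfkbiz.

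Nr4a1, an orphan nuclear receptor induced by the T cell receptor, stood at 63.5 FPKM (47.6 to 78.7) without and 96.3 (80.9 to 111) with IL-1β. The intervals lay apart, but the log2 ratio of 0.59 was under the 2-fold limit. Its relative Nr4a3 stood at 21.0 and 36 FPKM (0.75), and the transcription factors Egr1, Egr2 and Egr3 at 35.9 and 47.4, 17.5 and 18.3, and 15.2 and 23.2. Other members had the higher value without IL-1β. Fos stood at 8.82 and 6.61 FPKM, Ier2 at 28.1 and 22.1, and Zfp36, which destabilises cytokine mRNA, at 29.2 and 27.3. Il2, the growth factor that activated T cells secrete, was listed at 0 and stood at 1.16 FPKM with IL-1β, and its receptor chain Il2ra at 0 and 0.215. The 36 members at 1 FPKM or more had a median log2 ratio of 0.41, with 24 above 0 and 12 below. Scaling to equal sums brought that median to 0.10, beside 0.01 over all genes.

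**Figure D2:**
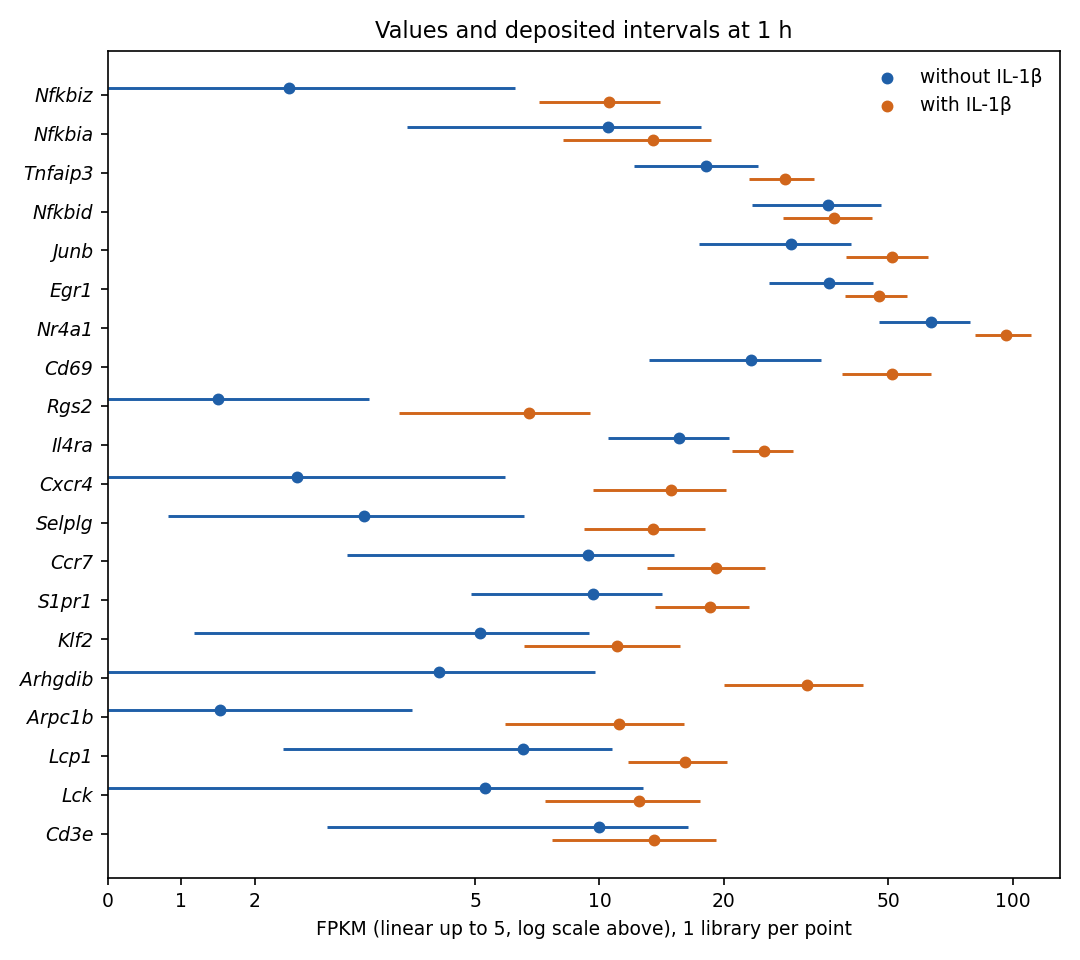
FPKM and deposited intervals of 20 genes at 1 h (x axis linear to 5 FPKM, logarithmic above), without IL-1β (blue) and with it (orange), 1 library per point. The blue and orange bars lie apart for Nfkbiz, Cd69, Rgs2, Cxcr4, Selplg, Arhgdib, Arpc1b and Lcp1, which were called, and for Nr4a1 and Il4ra, whose ratios were under 2-fold.

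Receptors that guide T cells through lymphoid tissue gave 2 of 10 compared members higher (20.0%, beside 7.72% of all compared genes). Cxcr4, the receptor of the chemokine CXCL12 (mm9 chr1:130484776-130488876), stood at 2.57 FPKM (0 to 5.90) without and 14.9 (9.62 to 20.3) with IL-1β, a log2 ratio of 2.15 that fell to no less than 1.84 under the scalings. Selplg, the ligand of P-selectin (mm9 chr5:114267807-114280510), stood at 3.49 (0.822 to 6.58) and 13.5 FPKM (9.17 to 18.0), a log2 ratio of 1.69. The call held for both genes under all 3 scalings. Ccr7, which steers naive cells into lymph nodes, stood at 9.39 (3.25 to 15.2) and 19.1 FPKM (13 to 25.1), and S1pr1, the exit receptor, at 9.67 (4.95 to 14.1) and 18.5 (13.7 to 23.1). Klf2, the transcription factor that maintains S1pr1, stood at 5.14 and 11.0 FPKM. The log2 ratios of these 3 were 0.95, 0.87 and 0.97, all with overlapping intervals. Gpr183, a receptor for oxysterols, stood at 8.44 and 7.56 FPKM.

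Ccr7, S1pr1 and Klf2 are also markers of naive T cells, a list of 14 of which 8 were compared. Of these 1, Igfbp4, was higher (12.5%, beside 7.72% of all compared genes). Igfbp4, an insulin-like growth factor binding protein, stood at 4.47 (1.04 to 8.29) and 12.9 FPKM (8.45 to 17.8), a log2 ratio of 1.35, and lost the call under all 3 scalings. Tcf7, a transcription factor of naive and memory cells, stood at 5.16 and 11.9 FPKM with overlapping intervals. Il7r stood at 4.20 FPKM in both and Lef1 at 4.64 and 3.18. The list's median was 0.65 over 12 members, 11 above 0 and 1 below, beside 0.23 over all genes at 1 FPKM or more. With equal sums it was 0.39, beside 0.01. In bulk RNA a different share of naive cells and a different amount of RNA per cell cannot be told apart.

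Genes of the actin cytoskeleton and its regulators gave 4 of 43 compared members higher (9.30%), near the 7.72% of all compared genes. Arhgdib, a GDP dissociation inhibitor abundant in blood cells (mm9 chr6:136872230-136890238), stood at 4.51 FPKM (0 to 9.73) without and 31.8 (20.0 to 43.4) with IL-1β, a log2 ratio of 2.58. Arpc1b, a subunit of the Arp2/3 complex that branches actin filaments, stood at 1.53 (0 to 4.14) and 11.1 FPKM (5.92 to 16.0), a log2 ratio of 2.26. Lcp1, an actin bundler of leukocytes, stood at 6.55 and 16.1 FPKM (1.18), and Cap1, which binds actin monomers, at 1.91 and 8.18 (1.66). The first 2 kept the call under every scaling, while Cap1 lost it under all 3 and Lcp1 under 2.

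The most abundant members of this list were not called. Actb stood at 187 FPKM (150 to 220) and 242 (206 to 261), Tmsb4x at 132 and 150, Pfn1 at 41.6 and 48.3, and Cfl1 at 37.3 and 52.3. Coro1a had the higher value without IL-1β, 48.8 against 36.8, and so did Hcls1, 6.88 (2.12 to 11.7) against 1.47 (0 to 2.73). The list's median log2 ratio was 0.50 over 55 members, 43 above 0 and 12 below, and 0.21 under the scaling that moved it most. Over all genes these medians were 0.23 and 0.01. Among higher genes outside the lists, Vasp, which promotes actin filament growth, stood at 1.02 and 6.12 FPKM. Pak2, a kinase controlled by Rac and Cdc42, stood at 1.63 and 5.12 FPKM. Def6, a guanine nucleotide exchange factor active after T cell receptor stimulation, stood at 1.01 (0 to 2.82) and 7.34 FPKM (4.04 to 10.5).

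Of 23 compared genes of T cell receptor signalling 1 was higher (4.35%, beside 7.72% of all compared genes). Lck, the kinase that starts the cascade, stood at 5.30 (0 to 12.8) and 12.4 FPKM (7.37 to 17.5), and the adaptor Lcp2 (SLP-76) at 3.35 (0.639 to 5.75) and 8.33 (5.49 to 11.0). Both ratios passed 2-fold with overlapping intervals, that of Lcp2 by a narrow margin. Zap70 went the other way, at 9.49 and 5.88 FPKM, and Lat stood at 17.8 and 17.3. Of the identity genes, Cd3e stood at 9.99 and 13.6 FPKM, Cd4 at 8.0 and 7.17, and Ptprc, encoding CD45, at 18.9 and 22.1. All 18 T cell identity genes were at 1 FPKM or more in at least 1 of the libraries, while Cd8a stood at 0.725 and 0.623. The signalling list had a median of 0.33, and the identity list one of 0.27, which turned to -0.02 with equal sums. Higher genes of neighbouring pathways were Gnai2, a G protein subunit that relays chemokine receptor signals, at 5.28 and 14.9 FPKM, and Rasgrp2, an activator of the integrin switch Rap1, at 2.10 and 8.54.

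Interferon response genes, measured while interferon γ was blocked in both cultures, gave 1 of 12 compared members higher (8.33%), near the 7.72% of all compared genes. Psmb8, a catalytic subunit of the immunoproteasome, was listed at 0 without IL-1β and stood at 11.1 FPKM (5.26 to 16.5) with it. Psmb9, its partner subunit, had the opposite pattern, 6.53 FPKM (0 to 13.3) against a listed 0, and was not called. Irf1 stood at 4.41 and 7.39 FPKM and the peptide transporter Tap1 at 2.36 and 8.20, both with overlapping intervals. The median log2 ratio of the 32 members at 1 FPKM or more was 0.67, 27 above 0 and 5 below, and 0.41 over those above 0 in both libraries. Over all genes these medians were 0.23 and 0.07. With equal sums the list's median was 0.39, beside 0.01 over all genes. Of the class I genes themselves, B2m was at 106 and 123 FPKM, H2-K1 at 60.1 and 73.9 and H2-D1 at 40.1 and 54.4, and the median of that list (0.29) turned to -0.04 with equal sums.

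Of 18 chemokine genes 13 were listed at 0 in both libraries, a value that genes used by every cell, such as Cox5a and Hnrnpa1, also have here. Ccl5, a chemokine of memory and cytotoxic cells that is also a marker on the list of NK and CD8 T cells, was listed at 0 without IL-1β and stood at 14.4 FPKM (3.46 to 24.2) with it. Xcl1 went from 6.09 FPKM (0 to 12.8) to a listed 0, Ccl4 from 4.20 to 1.79, and Ccl3 from a listed 0 to 1.43. Of the 2 compared members Ccl5 alone met the rule, and 2 are too few to set beside the 7.72% of all compared genes.

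The cytokine genes of the Th9 list were listed at 0 at this time. Il9, Il10, Il21, Il4 and Sfpi1, which encodes the Th9 transcription factor PU.1, were listed at 0 in both libraries. Of the list, 0 of 6 compared members were called, and 6 are too few to set beside the 7.72% of all compared genes. Il4ra, the receptor for the IL-4 in the medium, stood at 15.6 FPKM (10.5 to 20.6) without and 25.1 (20.9 to 29.4) with IL-1β, with intervals apart and a log2 ratio of 0.65. Tgfbr2, a chain of the TGFβ receptor, stood at 4.69 and 9.26 FPKM, Stat5b at 4.40 and 7.33, Irf4 at 6.61 and 8.10, and Stat6 at 2.93 and 3.27. Gata3 was listed at 0 without and stood at 3.29 FPKM (1.43 to 5.14) with IL-1β, under the minimum, and Batf went from 2.84 to a listed 0. The list's median was 0.65 over 13 members, 11 above 0 and 2 below, beside 0.23 over all genes at 1 FPKM or more. With equal sums it was 0.33, beside 0.01.

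Ribosomal protein genes gave 4 of 60 compared members higher (6.67%, beside 7.72% of all compared genes). Rps3 stood at 43.4 FPKM (28.5 to 58.1) and 92.4 (74.4 to 110), a log2 ratio of 1.07 that fell under 2-fold with each scaling. Rps26, at 42.8 FPKM with IL-1β, Rpl37a, at 8.35, and Rpl9, at 6.37, were listed at 0 without it. Ribosomal protein genes have many near-identical processed copies in the genome, so these values are uncertain. The median of the list was 0.29, near that of all genes, and 0.01 with equal sums.

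Translation factors gave 2 of 28 higher (7.14%, again near that background). Tpt1, a translationally controlled growth protein, stood at 8.64 (0 to 16.8) and 40.6 FPKM (24.7 to 56.5), a log2 ratio of 2.11 that held under every scaling, and Eif3a at 1.70 and 5.48. Tpt1 is also a host gene of small nucleolar RNA and the only called member of 15 compared in that list (6.67%, beside 7.72% of all compared genes). Ubb, a polyubiquitin gene, stood at 11.6 (1.84 to 20.2) and 42.7 FPKM (29.2 to 55.2), a log2 ratio of 1.79. It was the only called member of 8 compared (12.5%, beside 7.72% of all compared genes) in the list of proteasome, ubiquitin and heat shock genes. Of its heat shock genes, Hspa8 stood at 23.6 and 28.2 FPKM, Hsp90ab1 at 33.6 and 36.7, and Hsp90aa1 at 3.96 and 2.38.

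Respiratory chain genes showed calls and median in opposite directions. Of 24 compared, 4 were higher (16.7%, beside 7.72% of all compared genes), all listed at 0 without IL-1β. These were the cytochrome oxidase genes Cox4i1 (25.1 FPKM with IL-1β), Cox8a (16.2) and Cox6b1 (10.3), and the complex I gene Ndufa6 (15.6). The list's median log2 ratio was -0.15 over 36 members, with 17 above 0 and 19 below, and -0.57 over those above 0 in both libraries. Over all genes the same medians were 0.23 and 0.07. Uqcrh, of complex III, stood at 21.6 FPKM (3.92 to 39.2) without and 4.61 (0 to 8.41) with IL-1β. The complex I gene Ndufa7 stood at 12.9 and 2.75, and the ATP synthase gene Atp5k went from 15.1 (0 to 29.3) to a listed 0, all with overlapping intervals. Of glycolysis genes 3 were compared and 0 called, too few to set beside the 7.72% of all compared genes. Gapdh, a gene with many near-identical copies, stood at 0.99 FPKM and a listed 0, while Ldha stood at 8.72 and 13.7. Splicing genes gave 0 of 26, beside 7.72% of all compared genes. Among them Malat1, a nuclear non-coding RNA, stood at 214 FPKM (197 to 232) and 280 (264 to 295), intervals apart at a log2 ratio of 0.38.

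**Figure D3:**
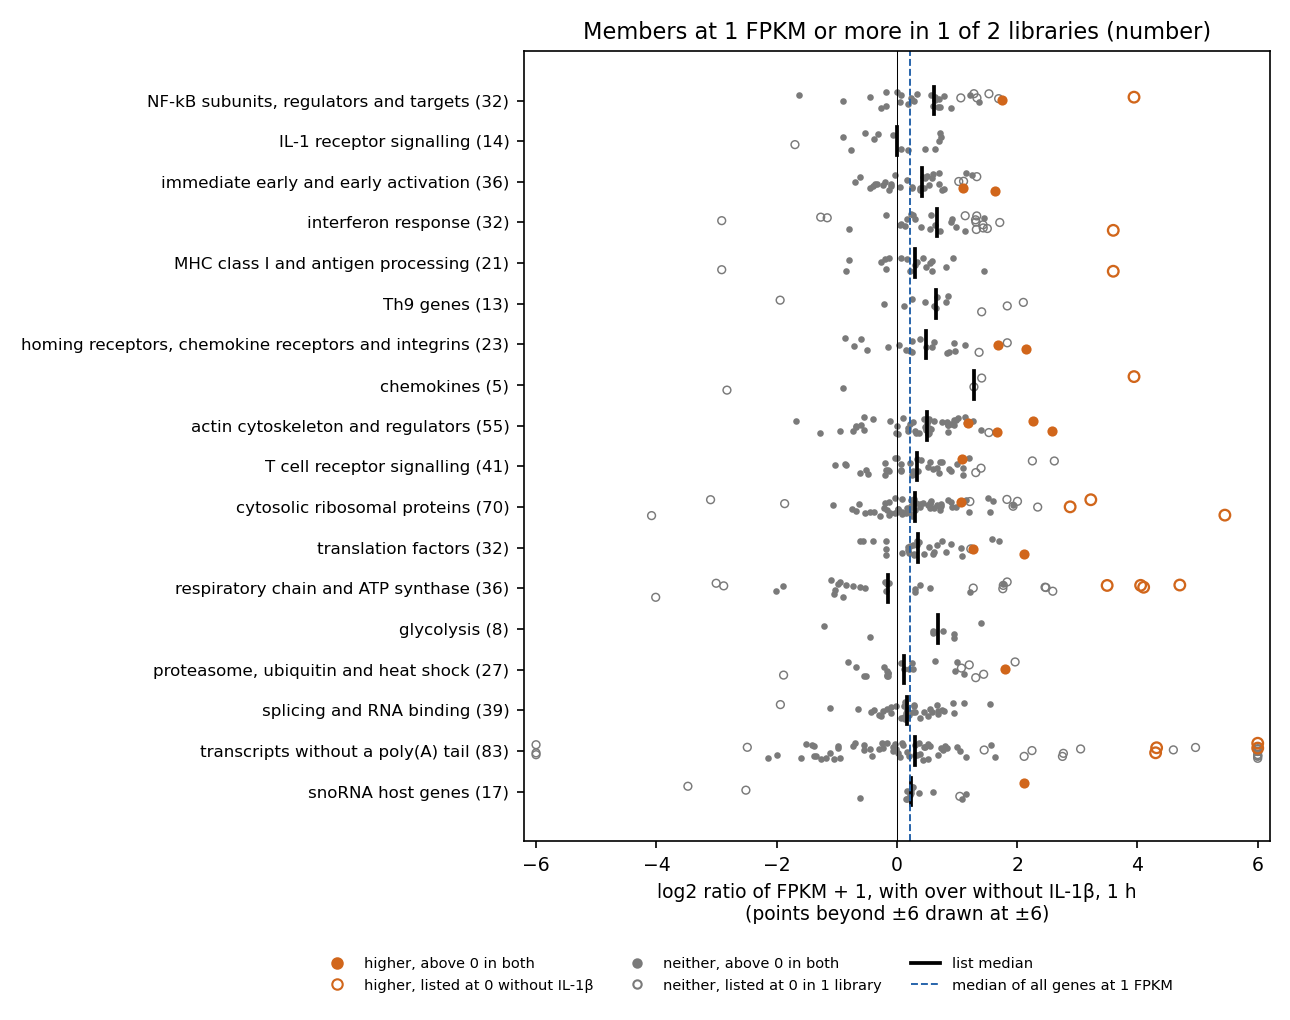
Log2 ratio of FPKM + 1 (x axis) for the members of 18 gene lists (rows) at 1 FPKM or more in 1 of the libraries, with ratios beyond the axis drawn at its ends. Orange marks higher genes, open circles genes listed at 0 in 1 library, black bars list medians and the dashed line the median of all genes, 0.23. The respiratory chain list has the lowest median (-0.15) and, with 4 members, as many higher genes as the actin, ribosomal and poly(A)-less lists.

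Ribosomal RNA depletion keeps transcripts without a poly(A) tail, and these libraries therefore show small nucleolar RNAs and replication-dependent histone mRNAs. Together with Rn45s and the other RNAs of that list they made up 87.6% of the summed FPKM without IL-1β and 90.3% with it. Over the whole list 4 of 69 compared members were higher (5.80%, beside 7.72% of all compared genes). Rn45s stood at 58843 FPKM without and 56674 with IL-1β, a log2 ratio of -0.05. Small nucleolar and Cajal body RNA genes gave 29 compared genes, of which 12 were listed at 0 without and 3 with IL-1β. In 27 of the 29 a value lay above its own upper bound, so the intervals do not describe these values. Snora17 (892 FPKM with IL-1β, interval 13.9 to 111) and Snora70 (868, interval 7.12 to 99.7), both listed at 0 without, met the rule. Snord32a, at 58624 FPKM with an interval of 0 to 102, did not, nor did Snora41, at 2700 FPKM without IL-1β and a listed 0 with it. The 14 above 0 in both libraries had a median log2 ratio of 0.46.

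Histone genes, whose mRNA is made mostly in S phase, gave 30 compared genes and 2 higher, beside 7.72% of all compared genes. These were Hist2h2ac (19.0 FPKM, 4.71 to 33.0) and Hist1h2ak (18.7, 4.68 to 32.7), both listed at 0 without IL-1β. The 24 histone genes above 0 in both libraries had a median log2 ratio of -0.37. Hist1h4d, at 53.0 FPKM (6.86 to 96.1) and 11.2 (0 to 20.6), was among the largest falls, with overlapping intervals. Histone genes have near-identical coding sequences, so single members are uncertain.

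On the lower side, 2 genes were called and both were listed at 0 with IL-1β. Igbp1, a regulator of protein phosphatase 2A (mm9 chrX:97689630-97711464), stood at 6.26 FPKM (1.41 to 11.3) without it, and the unnamed model BC013529 (mm9 chr10:7487745-7500715) at 6.09 (1.37 to 11.0). Of 26 compared genes listed at 0 with IL-1β, these were the ones with a lower bound above 0 in the other library. Of 64 listed at 0 without IL-1β, 38 had such a lower bound. Among genes above 0 in both, Sod1, the cytosolic superoxide dismutase, had the largest fall, from 19.4 FPKM (3.30 to 33.0) to 1.84 (0 to 4.25), a log2 ratio of -2.84 with overlapping intervals. With equal sums, Eif4h, a translation initiation factor at 12.3 and 5.28 FPKM, and Rad23b, a DNA repair and proteasome shuttle gene at 5.26 and 1.5, were also called lower.

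Of the 72 higher genes 43 stood in none of the lists. Those above 0 in both libraries included Gm1821, an unnamed model with the largest ratio among called genes above 0 in both libraries (1.94 to 16.9 FPKM, log2 ratio 2.61), which lost the call under every scaling. Others were the chaperonin subunit Cct8 (0.955 to 8.19), the GTPase gene Gimap9 (1.74 to 10.4), Lbh (0.734 to 5.98), the scaffold gene Slc9a3r1 (1.21 to 7.25), Acap1 (0.918 to 5.90), the lipoprotein receptor family gene Lrp10 (1.5 to 7.70) and the cohesin release factor Wapal (1.45 to 7.04). Those listed at 0 without IL-1β included the clathrin light chain Clta (9.85 FPKM with IL-1β), the NADPH oxidase subunit Cyba (9.02), Imp3 (8.56), the tubulin cofactor Tbca (7.76), the endosomal GTPase Rab7 (7.72) and the purine salvage gene Hprt (6.12). The 2 kinds differed in transcript length. By the longest GENCODE transcript, the higher genes listed at 0 had a median length of 929 bases (35 of 36 matched), those above 0 one of 3144 bases (34 of 36), and the compared genes that were not called one of 2556 bases (815 of 859). The part of length in these calls was not tested.

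RNA of other cell types stood in both libraries. B cell and plasma cell markers summed to 126 FPKM without and 115 with IL-1β. Of these, 0 of 5 compared were called, too few to set beside the 7.72% of all compared genes. Cd74 stood at 83.8 and 78.6 FPKM and Cd79a at 9.10 and 5.45. Erythroid and platelet markers summed to 246 and 262, mostly Hba-a1 at 215 and 232, a gene with a near-identical copy. Myeloid markers summed to 68.9 and 107 FPKM, and 11 of 25 were listed at 0 in both. In this list 1 of 8 compared was higher (12.5%, beside 7.72% of all compared genes). This was the adaptor gene Tyrobp, listed at 0 without and at 6.59 FPKM (1.62 to 13) with IL-1β. The neutrophil gene S100a8 was listed at 0 and stood at 7.52 (0 to 14.1), and Lyz2 stood at 2.36 and 7.07. NK and CD8 T cell markers summed to 27.7 and 43.1 FPKM, with Nkg7 at 6.46 and 8.29 and Gzma at 5.88 and 2.52. Ccl5 was the 1 called of only 4 compared (25%, beside the same 7.72%). Stroma and epithelium summed to 2.76 and 3.15, with 14 of 16 markers listed at 0 in both. The part of other cells in the higher values of Ccl5 and Tyrobp was not tested.

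The same 72 genes were then read in the other 2 pairs of libraries. At day 3, 66 of them reached 5 FPKM, and 2 were higher (Rpl9 and Tbca) and 0 lower, where 1.29% of 7962 compared genes were higher and 2.15% lower. Their log2 ratios were above 0 in 41 and below in 25, with a median of 0.13 beside -0.05 over all compared genes. In vivo, 68 were compared, 2 were higher (Cd69 and Cxcr4) and 0 lower, where 6.23% of 8639 compared genes were higher and 3.48% lower, and the ratios split evenly, 34 and 34. Cd69 stood at 12.9 and 17.5 FPKM at day 3 and at 9.01 and 53.3 in vivo. Cxcr4 stood at 10.6 and 17.3 at day 3 and at 12.3 and 35.0 in vivo. Nfkbiz stood at 5.81 and 6.55 at day 3 and at 9.83 and 19.0 in vivo, and was not called there. Arhgdib stood at 800 and 1053 at day 3 and at 733 and 853 in vivo. Of the 36 genes listed at 0 at 1 h without IL-1β, 30 stood at 5 FPKM or more in the day 3 library without IL-1β and 33 in the in vivo one, with medians over the 36 of 87.3 and 81.5 FPKM. Because RNA selection differed, levels at 1 h and at the other stages are not on one scale, and whether the ratios differ between stages was not tested.

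**Figure D4:**
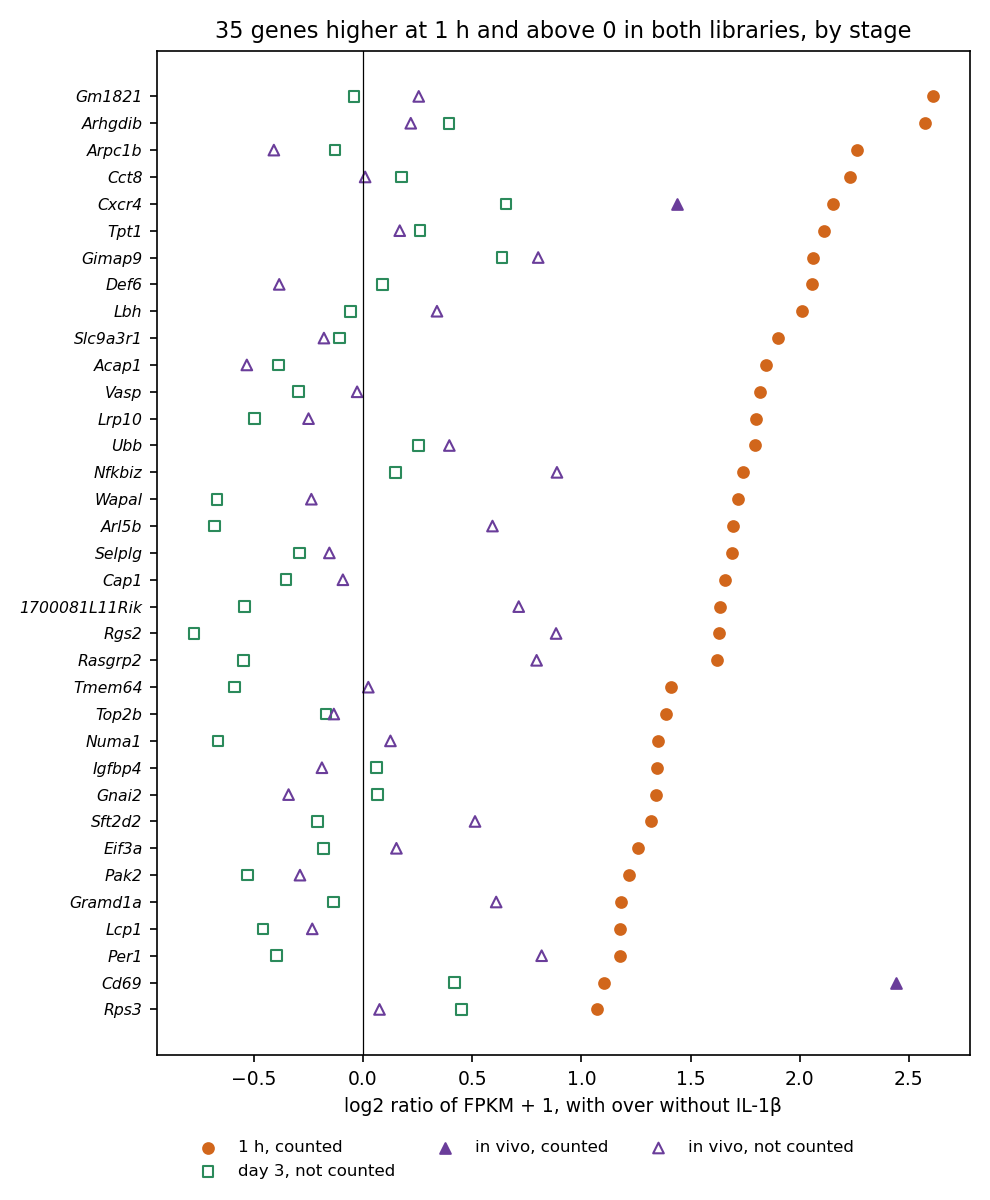
Log2 ratio of FPKM + 1 with over without IL-1β (x axis) for 35 of the 36 genes (rows) that were higher at 1 h and above 0 in both libraries, at 1 h (orange circles), day 3 (green squares) and in vivo (purple triangles), 1 library per group. Filled symbols met the rule. The 1 h ratios lie between 1.07 and 2.61, day 3 ratios lie on both sides of 0, and of the in vivo ratios those of Cxcr4 and Cd69 met the rule.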

How the data were processed

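RNA-seq values of 2 libraries (1 h of Th9 culture without and with IL-1β) were compared, with the other 4 libraries for the same genes. Per the file headers, the authors deposited FPKM per gene with a lower and an upper bound and a status. TopHat and the build mm9 are named per the submitters' processing notes. What tool made the gene values, at what level the intervals were set and how deep the libraries were is not given in the sources used, so precision is known through the intervals alone and no limit for a listed 0 was computed. Of 23700 entries per file, 285 were not marked OK and were dropped. Values and bounds of entries sharing a symbol were summed, which gave 23091 symbols, 190 from several entries.

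Ratios are log2 of FPKM with a pseudocount of 1, which understates the change of low genes. Genes needed 5 FPKM in 1 of the libraries, and list medians used members at 1 FPKM. No test was possible with 1 library per group, and no p-value is given. Samples were grouped by their labels. Named in full were the 15 largest ratios above 0 in both libraries, the 15 highest genes listed at 0 without IL-1β, lower genes, the 10 largest falls (in the text, a selection of each), called list members, and the most abundant members of each list with a fixed set of genes; other list members and genes near a threshold were chosen after their values were seen. The compared genes, the 18 pathway lists and the 7 marker lists were chosen with earlier results of these data known. Lengths came from GENCODE M21 and promoters from RefSeq (GRCm38.p6), by symbol. Coordinates of genes are those of the files (mm9). Alternatives were other pseudocounts, minima, folds, scalings, entries and interval rules. Results of some single genes are not reported here. Python 3.11.15, numpy 2.4.6, pandas 2.3.3 and matplotlib 3.10.9 were used.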

Additional observations from a re-analysis of the deposited data

How the results depend on the processing

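The count of 72 higher genes changed by over 1.5 times under 6 alternatives. The number of genes compared, 933 in the main setting, also changed under most of them. The count was 385 of 23091 with no minimum FPKM, 27 of 345 with a minimum of 10 FPKM, and 40 of 841 with the median ratio scaled to 0. It was 34 of 788 with equal sums outside the transcripts without a poly(A) tail, 36 of 843 with genes listed at 0 left out, and 180 of 933 with fold and minimum alone. The count of 2 lower genes became 6 with no minimum FPKM, 0 with a minimum of 10 FPKM, 4 with equal sums, 0 with genes listed at 0 left out, and 91 with fold and minimum alone. The loss under scaling and under a higher minimum follows from how these alternatives are built, since they lower the values with IL-1β or leave fewer genes. Counts under pseudocounts of 0.1 and 5, folds of 1.5 and 3, equal upper quartiles, other entries and other interval rules stayed within 1.5 times. Combining the bounds of several entries as the root of summed squares, an alternative chosen after seeing the data, gave 74 higher genes. Of the 72 higher genes, the call was lost by 24 with a pseudocount of 5, 32 with the median scaling, 17 with equal upper quartiles and 38 with equal sums, and by 0 with a pseudocount of 0.1. No paired analysis was possible because each group has 1 library, and for the same reason no replicate could be left out. The intervals of the library without IL-1β limit what it can show: 198 of its genes at 5 FPKM or more had a lower bound of 0.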
